A study of Mus musculus with 15 samples.

Results

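The cytosolic ribosome is built from ribosomal RNA and the products of one gene per ribosomal protein, and 81 such genes were followed in the tibialis anterior (TA), which lies along the front of the shin, across all 15 libraries of the series. They were chosen by symbol: Rpl or Rps followed by a number and at most a single letter a, l or x, together with Rplp0, Rplp1, Rplp2 and Rpsa, with mitochondrial ribosomal proteins, ribosomal S6 kinases and named pseudogenes left out. Of 55416 genes in the files, 83 carried such a symbol, and 81 reached 10 expected counts in at least 1 library. The members were 49 proteins of the large (60S) and 32 of the small (40S) subunit. The 2 symbols left out by the minimum were Rpl10l, with 0 counts in every library, and Rpl39l, with at most 3. Just inside it, Rpl32l reached 10 counts and Rps4l reached 70. After the filter on low counts 80 members were tested among 14372 genes, and Rpl32l was the member that did not pass the filter. Rps3a1, Fau and Rack1 also encode parts of the ribosome but fall outside the naming rule.

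All animals were male C57BL/6 (C57BL/6NCrlOri) mice of 6 to 8 weeks. Anti-PD-L1 mice (n = 3) and anti-CD8a mice (n = 3) had received KrasIKKaL tumour cells into the trachea and then, 3 times a week into the peritoneum, 200 µg/kg of an antibody to the checkpoint ligand PD-L1 or 200 µg of an antibody to the T cell surface protein CD8a, with the doses written as the labels give them. IgG mice (n = 4) had received the same tumour cells and a rat IgG2b isotype antibody, and control mice (n = 5) no tumour cells. The labels name no antibody for the control mice, so tumour and antibody cannot be told apart wherever control is the other side of a comparison. Nor do they say whether the libraries are separate mice; p-values here measure only the spread between libraries, which may be technical.

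Ribosomal proteins are assembled with ribosomal RNA in the nucleolus and are needed in equal numbers per ribosome, with the acidic stalk proteins Rplp1 and Rplp2 as the known exception. Their mRNAs typically begin with a run of pyrimidines at the cap, the TOP motif, through which the kinase complex mTORC1 and the RNA-binding protein Larp1 set their translation and stability. In skeletal muscle and heart, Rpl3l takes the place of Rpl3, a protein whose loop reaches towards the peptidyl transferase centre, in part of the ribosomes. Rpl3l is known as a gene of striated muscle that falls when muscle grows or regenerates.

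Library totals were 15894804 to 22459348 counts. Markers of muscle fibres, among them Acta1, Ckm and Myh4, were abundant in every library and summed to between 84438 and 158692 CPM (counts relative to the library total, scaled by the TMM factors), while the T cell list stayed under 4 CPM in every library. In IgG against control 2 of the 12 fibre markers were called higher and 4 lower, where 30.2% and 28.4% of all genes were. In anti-PD-L1 against control none was higher and 3 were lower, against 20.8% and 13.9%. In anti-CD8a against IgG 1 was higher and 1 lower, against 23.2% and 24.8%. Levels of other cell types moved with the groups as well. The summed level of 12 macrophage markers was 202.6 to 646 CPM in anti-PD-L1, 79.1 to 245.3 CPM in anti-CD8a, 69.5 to 106 CPM in IgG and 109 to 202.6 CPM in control libraries, and that of 8 fibroblast markers was 1059 to 1408, 798 to 953, 505 to 715 and 1034 to 1428 CPM in the same order. Of the 11 macrophage markers tested, 1 was higher and 10 were lower in IgG than in control muscles, and 7 of 8 fibroblast markers were lower. In the same comparison 5 of 5 red blood cell, 3 of 4 neutrophil and none of 2 B cell markers tested were higher, and 1 B cell marker was lower. Over alternative fits the red blood cell count ran from 2 to 5 and the neutrophil count from 2 to 4. Of 7 endothelial markers 1 was higher and 2 were lower, and of 6 satellite cell markers 1 was higher and 4 were lower. Only 1 of the 8 T cell markers, Cd3e, was tested, and it was lower. No marker of these lists was at 0 in every library. Their part in the results was not tested, and in whole muscle fewer cells of a type and less RNA per cell cannot be told apart.

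Levels of the members were compared by TPM, which corrects for transcript length. The median member averaged 521 TPM over the 15 libraries. Rps27, a 40S protein with a zinc finger, had the highest mean at 2477 TPM, followed by Rplp1 with 1663 TPM and Rps29 with 1642 TPM. Rpl32l had the lowest mean at 1.14 TPM, and Rps4l and Rpl6l averaged 2.68 and 6.17 TPM. Rpl3, although a core protein, ranked 78 of 81 with 95.7 TPM, just below Rpl3l with 236 TPM at rank 77. Rpl3l was among the 77 members that averaged more than 200 TPM. Together the members held 2.55% to 3.40% of all counts in anti-PD-L1, 1.70% to 1.95% in anti-CD8a, 1.99% to 2.75% in IgG and 1.43% to 2.46% in control libraries. The control libraries were the most uneven: controls 4 and 5 held 2.46% and 2.40%, and controls 1, 2 and 3 held 1.99%, 1.43% and 1.502%. Control 2 had the lowest level of 69 of the 80 tested members. Mitochondrially encoded transcripts took 11.1% to 14.4% of counts in anti-PD-L1, 20.2% to 23.1% in anti-CD8a, 12.8% to 16.7% in IgG and 17.6% to 23.0% in control libraries. With these genes left out of the library totals, 33 members (41.2%, against 29.9% of all genes) were called higher in IgG than in control muscles. With them the count was 37 (46.3%, against 30.2%).

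**Figure D1:**
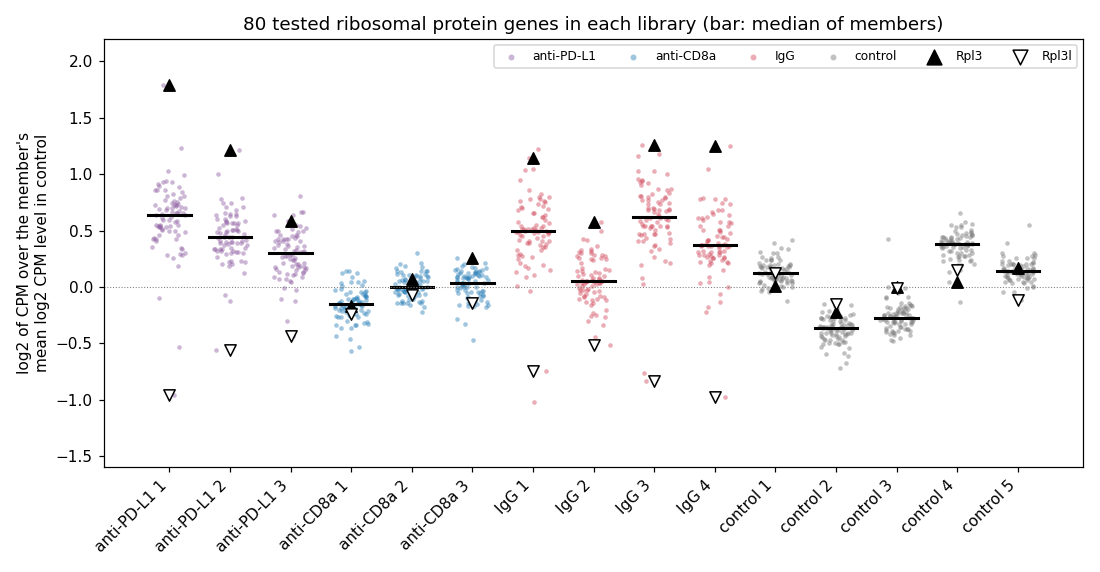
Level of each of the 80 tested ribosomal protein genes in each library, as log2 of its CPM relative to its mean log2 CPM in the control libraries; dots are genes coloured by group, black bars their median, filled triangles Rpl3 and open triangles Rpl3l. Medians lie between 0.30 and 0.64 in anti-PD-L1, between -0.15 and 0.04 in anti-CD8a, between 0.05 and 0.62 in IgG and between -0.37 and 0.38 in control libraries, and in every anti-PD-L1 and IgG library Rpl3l lies below this median and Rpl3 above it.

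The start sites of the members were read from RefSeq (GRCm38.p6), which had promoter entries for 59 of the 81. A run of at least 8 pyrimidines beginning with C, on the sense strand within 30 bases of an annotated start, was present for 33 of these 59 genes (55.9%), against 5570 of 27025 genes in the table (20.6%). The letters CCGGAAG, a core of binding sites of ETS factors, occurred on either strand of the 300-base promoter for 24 of 59 members (40.7%) and for 9.93% of all genes; read on the opposite strand they begin with pyrimidines, so the motifs can overlap. For members named below, 30 bases around the run are shown from 5′ to 3′, with the pyrimidine run in capitals, because this run is the feature most ribosomal protein mRNAs are known to share.
Rps27: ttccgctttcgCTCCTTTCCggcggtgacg
Rps6: ggaagtcgggCCTCTTTTTCgtgacgcctc
Rps25: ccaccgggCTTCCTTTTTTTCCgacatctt
Rpl4: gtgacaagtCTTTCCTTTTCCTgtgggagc
Rpl10a: aagcgctctgCCTTCTTTCCggtttccgcg
Rpl3l: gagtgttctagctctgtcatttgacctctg
Neither of the 2 annotated starts of Rpl3l had such a run in this window; the printed letters are 15 bases to either side of the first. No run was found either for Rplp0, Rpsa, Rpl22, Rpl12, Rps13 or Rps2, and those found for Rpl34, Rpl39 and Rps27l are not printed. Rpl10a also has 2 annotated starts, and the run shown lies after one of them. The runs shown for Rps25 and Rpl4 lie wholly before the annotated start, outside the annotated mRNA, and those for Rps27 and Rps6 cross it. A run is a match of letters, not a measured start. In IgG against control the 32 tested members with a run had a median log2 fold change of 0.37, with 15 called higher, and the 26 members with an entry and no run had a median of 0.37, with 13 called higher and 1 lower. Of all genes tested in this comparison, 30.2% were called higher and 28.4% lower.

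The comparison of IgG with control asks how muscle of tumour-bearing mice given the isotype antibody differed from muscle of mice without tumour. Ribosomal protein genes were higher in IgG muscles by a small amount: 37 of 80 rose and 1, Rpl3l, fell, at an adjusted p under 0.05 (edgeR's quasi-likelihood test, Benjamini-Hochberg over all 14372 genes). Among all genes tested 30.2% were called higher and 28.4% lower; among the members the shares were 46.3% and 1.25%. The median member changed by 0.37 on the log2 scale, a fold of 1.29, against a median of -0.02 over all genes; 75 of 80 members had a positive and 5 a negative log2 fold change. The 60S members gave 24 higher and 1 lower of 48, and the 40S members 13 higher of 32. The ranges of the 2 groups did not overlap for 8 members with IgG higher and for Rpl3l with IgG lower, where 24.3% and 23.4% of all genes did not overlap. Control 4 was above the lowest IgG library for 72 of 80 members, control 1 for 49 and control 5 for 52, but controls 2 and 3 for 3 each. The members' share of higher calls was not above that of all genes in every fit. It was 28.8% (23 members) without control 2, against 28.8% of all genes, 28.8% (23) without IgG 1, against 27.8%, and 27.5% (22) without IgG 3, against 29.0%. Without control 4 it was 63.8% (51), against 28.5%, and without IgG 2 61.2% (49), against 30.6%. Under upper-quartile scaling it was 13.8% (11, with 3 lower), against 22.5%. That scaling lowers the median of all genes by 0.25, and the members' median stood 0.38 above it there, against 0.39 with TMM.

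**Figure D2:**
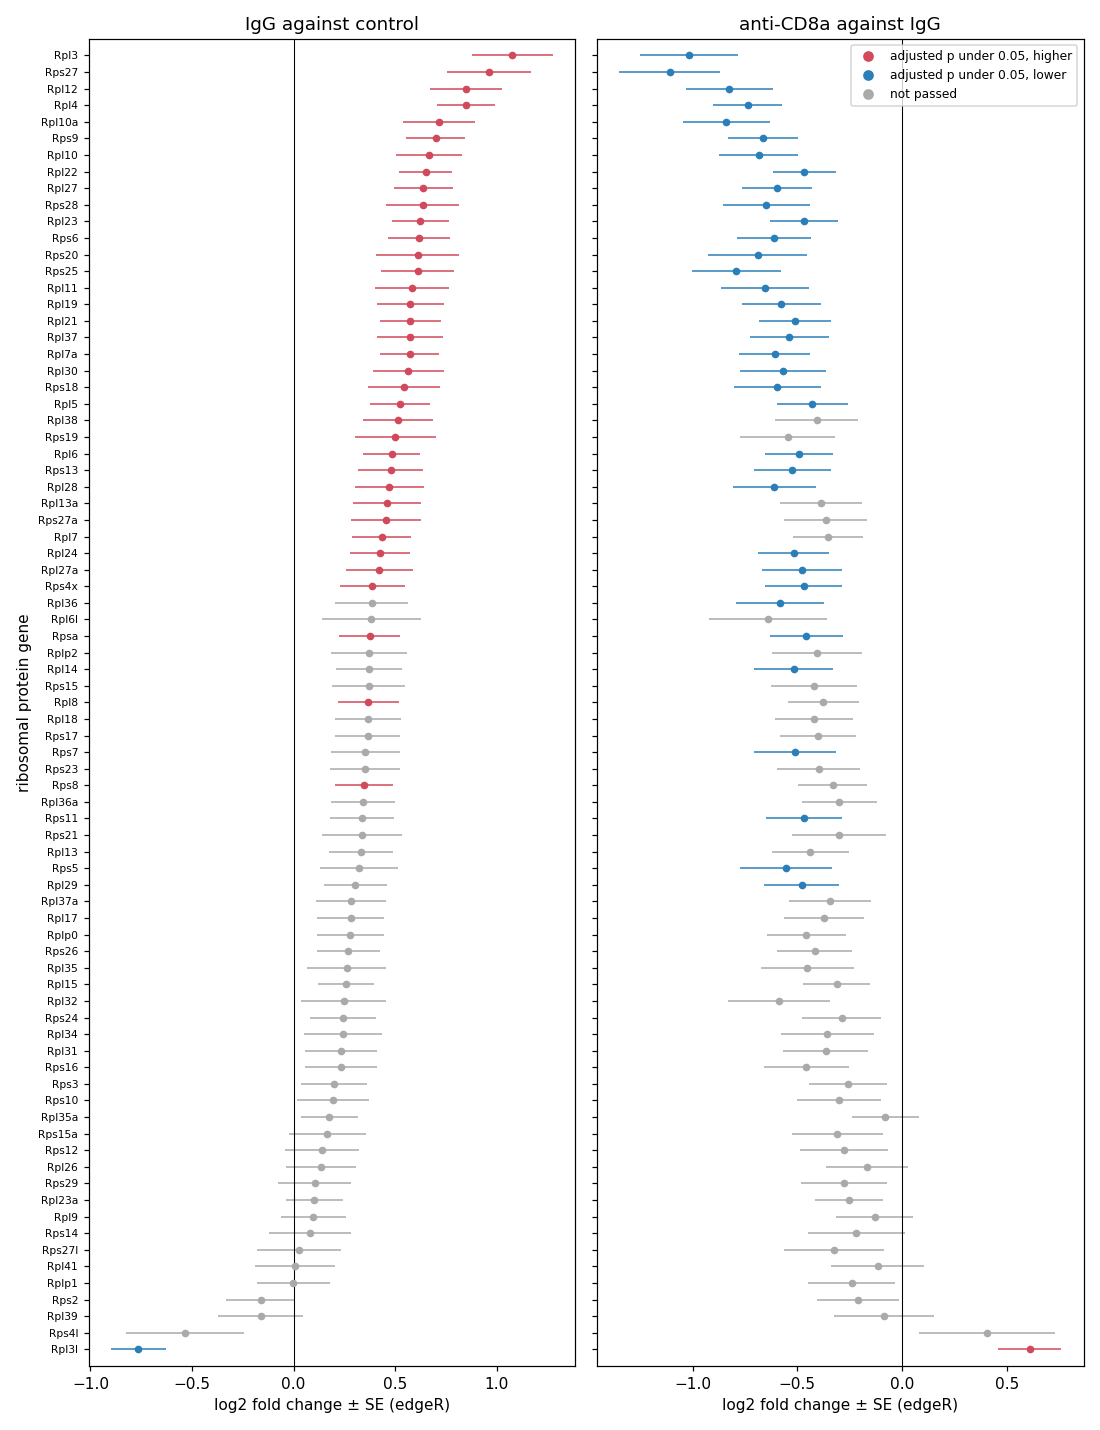
Log2 fold change ± SE (edgeR) of 79 ribosomal protein genes for IgG against control (left) and anti-CD8a against IgG (right), both in the order of the left panel; red and blue mark genes higher and lower at an adjusted p under 0.05, grey the others. Rpl3 and Rps27 head the left panel at 1.08 and 0.96 and are at -1.02 and -1.11 on the right, while Rpl3l at the foot is at -0.76 and 0.61; both panels use the IgG libraries.

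Among the members that rose most was Rps27. Rps27 had 543, 463 and 368 CPM in anti-PD-L1, 185, 204 and 254 CPM in anti-CD8a, 540.2, 309, 524 and 479 CPM in IgG and 274, 175, 176, 310.3 and 254 CPM in control muscles. Every IgG library except IgG 2 was above all controls, and IgG 2 was just below control 4. Its log2 fold change in IgG against control was 0.96 ± 0.20 (SE, adjusted p = 0.000865). A near-identical retrogene, Rps27rt, could share reads with it, but held 63 to 213 counts where Rps27 held 2976 to 11396.

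Rpl12 and Rpl4 stood next. Rpl12 is a 60S protein at the base of the stalk that recruits translation factors. Rpl12 had 436, 395 and 333 CPM in anti-PD-L1, 235, 234 and 244.03 CPM in anti-CD8a, 469, 307, 513 and 395 CPM in IgG and 258, 169, 187, 290.0 and 264.9 CPM in control muscles. Its IgG libraries all lay above its controls, with a log2 change of 0.85 ± 0.18 (SE, adjusted p = 0.00075). Rpl4 lines the tunnel through which the nascent chain leaves the ribosome. Rpl4 had 813, 798 and 618 CPM in anti-PD-L1, 551, 579 and 619 CPM in anti-CD8a, 1107, 758, 1095 and 925 CPM in IgG and 576, 480.2, 505, 619 and 519 CPM in control muscles. The lowest IgG library, IgG 2, was still above the highest control, and the log2 fold change was 0.85 ± 0.14 (SE, adjusted p = 0.000111).

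Rpl10a forms the mobile L1 stalk through which used tRNA leaves. Rpl10a had 275, 318 and 225 CPM in anti-PD-L1, 175, 171 and 191 CPM in anti-CD8a, 367, 240.2, 381 and 291 CPM in IgG and 199.7, 146, 159, 259 and 209 CPM in control muscles. IgG 2 lay below control 4, so the groups overlapped, and the log2 fold change was 0.72 ± 0.18 (SE, adjusted p = 0.00268). Rpl22 is a 60S protein that also binds other RNAs and restrains its own paralogue, Rpl22l1. Rpl22 had 180.3, 182 and 152 CPM in anti-PD-L1, 125, 139.6 and 125 CPM in anti-CD8a, 192, 146, 198 and 182 CPM in IgG and 134, 97.9, 96.9, 124 and 119 CPM in control muscles. Its groups did not overlap and its log2 fold change was 0.65 ± 0.13 (SE, adjusted p = 0.000527), whereas Rpl22l1 averaged 72.5 ± 17.0 CPM in IgG and 64.9 ± 25.6 CPM in control muscles (SD, n = 4 and 5) and did not pass the test (adjusted p = 0.6).

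Rps6, the 40S protein that S6 kinases phosphorylate when mTORC1 is active, was among the members called higher in IgG muscles. Rps6 had 384, 369 and 304 CPM in anti-PD-L1, 213, 223 and 252 CPM in anti-CD8a, 334, 268, 412 and 386 CPM in IgG and 225, 183, 204, 283.5 and 244.3 CPM in control muscles. Only IgG 2 reached into the control range, through control 4. The log2 fold change in IgG against control was 0.62 ± 0.15 (SE, adjusted p = 0.00258), and this call was lost under upper-quartile scaling (adjusted p = 0.053). Rpsa, a 40S protein also known as the laminin receptor, had a smaller difference. Rpsa had 611, 598 and 523 CPM in anti-PD-L1, 444, 471 and 475 CPM in anti-CD8a, 687, 496, 741 and 621 CPM in IgG and 554, 396, 416, 604 and 485 CPM in control muscles. IgG 2 was below controls 1 and 4, and its call (log2 fold change 0.37 ± 0.15 (SE, adjusted p = 0.0416)) was lost in 12 of 18 alternatives.

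None of the 3 stalk proteins was called by edgeR with TMM scaling of all libraries in any of the 6 comparisons; over the alternatives, up to 2 were called higher in IgG against control and up to 2 lower in anti-CD8a against IgG. Rplp0, on which the stalk is built, is often used as a reference gene. Rplp0 had 726, 733 and 586 CPM in anti-PD-L1, 555, 604 and 565 CPM in anti-CD8a, 899.6, 599, 836 and 819 CPM in IgG and 691, 495, 533, 831 and 701 CPM in control muscles. IgG and control libraries overlapped widely and the log2 fold change was 0.28 ± 0.16 (SE, adjusted p = 0.156). Rplp1 had a log2 change of 0.00 ± 0.18 (SE, adjusted p = 0.995), and Rplp2 one of 0.37 ± 0.19 (SE, adjusted p = 0.099). Both proteins of the 5S particle, which carries 5S ribosomal RNA into the large subunit and binds Mdm2 when free, rose: Rpl11 by 0.58 ± 0.18 (SE, adjusted p = 0.0119) and Rpl5 by 0.52 ± 0.15 (SE, adjusted p = 0.00601) on the log2 scale, and neither was called under upper-quartile scaling. Of the 6 proteins around the exit of the tunnel (Rpl23a, Rpl35, Rpl26, Rpl17, Rpl19 and Rpl31), Rpl19 was called higher, by 0.57 ± 0.16 (SE, adjusted p = 0.00707). This call was lost under upper-quartile scaling. Rps27a, made as a fusion with ubiquitin, was called higher too, by 0.46 ± 0.17 (SE, adjusted p = 0.0318). This call was lost without a scaling factor, and other fits that may have lost it are not listed here.

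Rps27l, the paralogue of Rps27 known in human cells as a p53 target, was not called by edgeR with TMM scaling of all libraries in any comparison. Rps27l had 126, 76.9 and 108 CPM in anti-PD-L1, 59.8, 78.3 and 64.4 CPM in anti-CD8a, 88.7, 64.0, 112 and 73.8 CPM in IgG and 95.3, 58.3, 62.2, 99.5 and 99.7 CPM in control muscles. IgG 3 was above every control and controls 2 and 3 were below every IgG library, with the others interleaved and a log2 change of 0.03 ± 0.21 (SE, adjusted p = 0.924). Rpl39, a small protein of the exit tunnel, had a log2 change of -0.16 ± 0.21 (SE, adjusted p = 0.521) and Rps2, which lies at the mRNA entry channel, one of -0.16 ± 0.17 (SE, adjusted p = 0.429). Rps4l, at 17 to 70 counts per library, had -0.53 ± 0.29 (SE, adjusted p = 0.122).

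Outside the rule, Rps3a1 (log2 fold change 0.36 ± 0.14, adjusted p = 0.0429) was called higher in IgG muscles; it was named after its values were seen. Of 7 fixed components and relatives outside the rule, Fau (0.56 ± 0.17, adjusted p = 0.0109) and Rpl36al (0.34 ± 0.14, adjusted p = 0.0449) rose and Rpl7l1, a relative of Rpl7 that acts in ribosome assembly, fell (-0.60 ± 0.14, adjusted p = 0.00192). Neither Fau nor Rpl36al was called under upper-quartile scaling.

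Rpl3 (ENSMUSG00000060036, chromosome 15) and Rpl3l (ENSMUSG00000002500, chromosome 17) moved in opposite directions. Rpl3 had 226, 159 and 100.1 TPM in anti-PD-L1, 47.1, 51.3 and 63.8 TPM in anti-CD8a, 132, 95.2, 134 and 172 TPM in IgG and 43.2, 44.1, 49.8, 52.4 and 66.0 TPM in control muscles. Every anti-PD-L1 and IgG library was above every anti-CD8a and control library. Rpl3l had 182, 234 and 262 TPM in anti-PD-L1, 244.6, 251 and 261 TPM in anti-CD8a, 174, 227, 159.8 and 180.5 TPM in IgG and 254, 247, 263.6, 302 and 292 TPM in control muscles. All IgG libraries were below all controls and all anti-CD8a libraries, and anti-PD-L1 3 was within the control range on this scale.

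In IgG against control, Rpl3 rose by 1.08 ± 0.20 (SE, adjusted p = 0.000281) and Rpl3l fell by 0.76 ± 0.14 (SE, adjusted p = 0.000192) on the log2 scale, and both calls held in all 18 alternatives. In anti-CD8a against IgG, Rpl3 fell by 1.02 ± 0.23 (adjusted p = 0.00232) and Rpl3l rose by 0.61 ± 0.15 (SE, adjusted p = 0.0039), holding in all 16 alternatives. In anti-PD-L1 against control, Rpl3 rose by 1.27 ± 0.21 (SE, adjusted p = 0.000489) and Rpl3l fell by 0.64 ± 0.15 (adjusted p = 0.0043), holding in all 17. In anti-PD-L1 against anti-CD8a, Rpl3 rose by 1.21 ± 0.25 (SE, adjusted p = 0.00466), in all 15 alternatives, whereas the fall of Rpl3l (-0.48 ± 0.16, adjusted p = 0.0471) was lost in 10 of 15, where the adjusted p reached 0.161. Neither passed the test in anti-PD-L1 against IgG or in anti-CD8a against control. These comparisons share libraries, so they are not independent of each other.

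Within each library Rpl3l was set against Rpl3, which needs no scaling between libraries. Rpl3l made up 44.6%, 59.6% and 72.4% of the pair's summed TPM in anti-PD-L1, 83.8%, 83.0% and 80.3% in anti-CD8a, 57.0%, 70.4%, 54.4% and 51.2% in IgG and 85.5%, 84.8%, 84.1%, 85.2% and 81.6% in control muscles. No anti-PD-L1 or IgG library reached the lowest anti-CD8a or control library. The sum of both was 388 ± 23.5 TPM in anti-PD-L1, 306 ± 16.7 TPM in anti-CD8a, 319 ± 25.5 TPM in IgG and 323 ± 31.5 TPM in control muscles (SD, n = 3, 3, 4 and 5).

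The log2 ratio of Rpl3l to Rpl3 was 0.50 ± 0.52 in IgG and 2.42 ± 0.16 in control muscles (SD, n = 4 and 5; difference -1.93), with a two-sided exact permutation p of 0.0159, the smallest this design allows. It was 2.23 ± 0.18 in anti-CD8a and 0.50 ± 0.52 in IgG muscles (n = 3 and 4; difference 1.73), with an exact p of 0.0571, again the smallest possible. In anti-PD-L1 it was 0.55 ± 0.85, against 2.42 ± 0.16 in control muscles (n = 3 and 5), with an exact p of 0.0357, also the smallest. Anti-PD-L1 against anti-CD8a gave a difference of -1.68 and an exact p of 0.1, the smallest for 3 against 3. Adjusted over the 6 comparisons these exact p-values were 0.0952, 0.114, 0.107 and 0.15, so none passed 0.05, which this number of libraries could not have reached. In anti-CD8a against control the ratio differed by -0.19 (exact p = 0.179), and in anti-PD-L1 against IgG by 0.05 (exact p = 0.971).

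**Figure D3:**
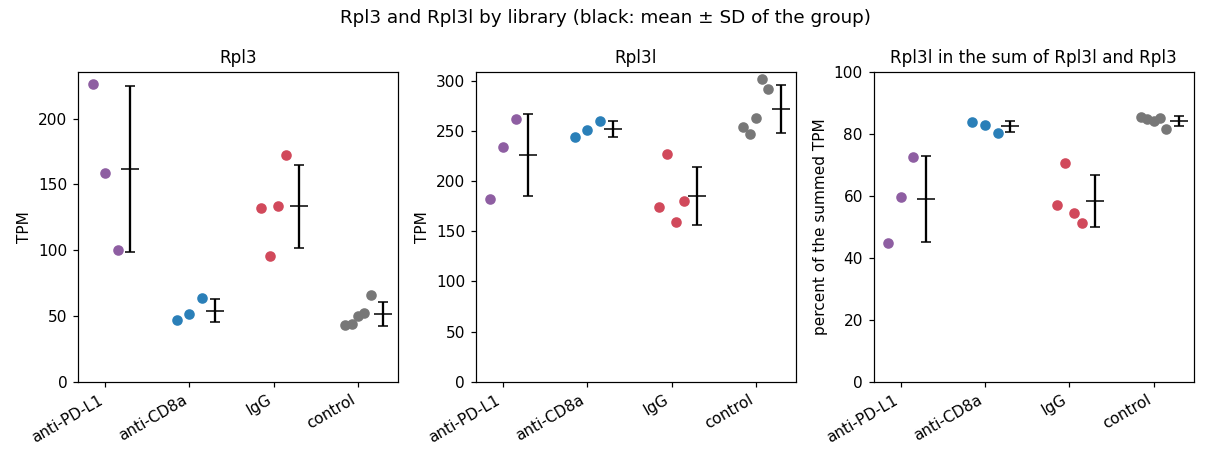
TPM of Rpl3 (left) and Rpl3l (middle), and the percentage of their summed TPM that was Rpl3l (right), in each library by group, with black marks for the group mean ± SD. In the right panel the anti-PD-L1 libraries lie between 44.6% and 72.4% and the IgG libraries between 51.2% and 70.4%, below every anti-CD8a library (80.3% to 83.8%) and control library (81.6% to 85.5%).

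The comparison of anti-CD8a with IgG asks what the antibody to CD8a changed in tumour-bearing mice. Members were lower in anti-CD8a muscles: 36 of 80 fell and 1, Rpl3l, rose, where 24.8% of all genes were called lower and 23.2% higher. In the same comparison 8 of 11 macrophage markers were called higher and 1 lower, 6 of 8 fibroblast markers higher, and 3 of 6 satellite cell markers higher and 1 lower. Over the alternatives the higher counts ran from 3 to 11 for macrophages and from 1 to 5 for satellite cells, and stayed at 6 for fibroblasts. The part of these cell types in the members' values was not tested. The median log2 fold change was -0.45, a fold of 0.73, against 0.02 over all genes, and 78 of 80 members had a negative one. The ranges did not overlap for 40 members with anti-CD8a lower and for Rpl3l with anti-CD8a higher, against 24.7% and 23.1% of all genes. IgG 2 overlapped most with the anti-CD8a libraries, lying below the highest of them for 40 members, against 2 to 7 for the other IgG libraries. The 60S members gave 23 lower and 1 higher of 48, and the 40S members 13 lower of 32. In several fits the members' share of lower calls was below that of all genes. It was 18.8% (15 members) without IgG 1, against 21.8% of all genes, 17.5% (14) without IgG 3, against 23.8%, and 12.3% (10) without anti-CD8a 1, against 19.9%. Without anti-CD8a 2 it was 21.0% (17), against 19.9%, and without anti-CD8a 3 22.2% (18), against 20.5%. Without IgG 2 it was 66.2% (53), against 26.0%, and by DESeq2 50% (40), against 25.5%. With the replicate number as a block it was 15% (12), against 20.9%. It was 10.0% (8), against 17.7%, under upper-quartile scaling, which moves the median of all genes by 0.23; the members' median stood -0.47 from it there and -0.48 from it with TMM.

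Among the members that fell most were Rps27, by 1.11 ± 0.24 (adjusted p = 0.00156), Rpl3, Rpl10a (-0.84 ± 0.21, adjusted p = 0.00377), Rpl12 (-0.82 ± 0.21, adjusted p = 0.0042) and Rps25 (-0.79 ± 0.21, adjusted p = 0.00627). The IgG libraries of Rps27, Rpl12 and Rpl10a printed above were all higher than their anti-CD8a libraries. Rps25, a 40S head protein known from human and yeast cells for its role in initiation at viral internal entry sites, was printed with its start. Rps25 had 628, 473 and 444 CPM in anti-PD-L1, 278, 287 and 292 CPM in anti-CD8a, 559, 375, 574 and 468 CPM in IgG and 332, 235, 255, 414 and 383 CPM in control muscles. Its anti-CD8a libraries were close together and below every IgG library. Rps6 fell by 0.61 ± 0.18 (adjusted p = 0.0102) and Rpl4 by 0.74 ± 0.16 (adjusted p = 0.00189). The call of Rps6 was lost in 2 of 16 alternatives, under upper-quartile scaling and without anti-CD8a 1 (adjusted p up to 0.088). That of Rpl4 held in all 16. By edgeR Rplp0 (-0.46 ± 0.19, adjusted p = 0.0565) and Rps27l (-0.32 ± 0.24, adjusted p = 0.272) did not pass the test, but Rplp0 was called lower by DESeq2 and, in edgeR, without IgG 2. This comparison shares the 4 IgG libraries with that of IgG against control.

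In anti-CD8a against control no member was called in either direction by edgeR or by DESeq2, and none had an unadjusted p under 0.05. Among all genes 0.00696% were called higher and the same share lower, so few calls were made anywhere in this comparison. The median log2 fold change was -0.06, against 0.01 over all genes, with 61 members negative and 19 positive, and no member had ranges that did not overlap, against 5.18% of all genes higher and 4.38% lower. Rps2 had the smallest p. Rps2 had 798, 787 and 693 CPM in anti-PD-L1, 594, 736 and 701 CPM in anti-CD8a, 861, 630.1, 907 and 735 CPM in IgG and 969, 656, 684, 1131 and 939 CPM in control muscles. Controls 1, 4 and 5 were above every anti-CD8a library and controls 2 and 3 among them, with a log2 change of -0.37 ± 0.19 (SE, adjusted p = 0.687). A p that misses the threshold does not show that the levels were alike: the members' log2 fold changes ran from -0.37 to 0.18.

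Anti-PD-L1 muscles were compared with control and with anti-CD8a muscles, using the same 3 anti-PD-L1 libraries. Against control, 31 members rose and Rpl3l fell, where 20.8% of all genes were called higher and 13.9% lower, with a median of 0.45 against 0.05 over all genes. Ranges did not overlap for 19 members with anti-PD-L1 higher and 1 lower, against 21% and 16.8% of all genes. The members' share of higher calls was 16.2% (13) without control 2, against 18.2% of all genes, 17.5% (14) without control 3, against 19.1%, and 58.8% (47) without control 4, against 17.6%. It was 10.0% (8) without anti-PD-L1 1, against 17.8%, 16% (13) without anti-PD-L1 2, against 12.8%, and 10.0% (8) under upper-quartile scaling, against 14.8%. Against anti-CD8a, 17 members rose and Rpl3l fell, where 12.1% of all genes were called higher and 7.64% lower, with a median of 0.49 against 0.05. Ranges did not overlap for 71 members with anti-PD-L1 higher and 1 lower, where 21.7% and 16.6% of all genes did. Of the libraries of the 2 groups, leaving out any but anti-PD-L1 3 lowered the count of 17. It was 2 (2.5%, against 10.8% of all genes) without anti-PD-L1 1, 5 (6.17%, against 5.34%) without anti-PD-L1 2 and 1 (1.23%, against 4.99%) without anti-CD8a 1. It was 3 (3.7%, against 5.35%) without anti-CD8a 2 and 4 (4.94%, against 8.90%) without anti-CD8a 3, and the fall of Rpl3l was then called in none of these 5.

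After Rpl3, the largest rises in anti-PD-L1 against control were those of Rps27 (0.95 ± 0.22, adjusted p = 0.00424), Rpl12 (0.73 ± 0.19, adjusted p = 0.00843), Rpl30, Rps13 and Rpl34. Rpl30 and Rpl34 are 60S proteins and Rps13 a 40S protein. Rpl30 had 419, 359 and 310.4 CPM in anti-PD-L1, 217, 217 and 237 CPM in anti-CD8a, 378, 241, 389 and 320.3 CPM in IgG and 249.7, 165, 182, 287 and 238.4 CPM in control muscles. Anti-PD-L1 libraries were above all controls, with a log2 change of 0.69 ± 0.19 (SE, adjusted p = 0.0109). Rps13 had 359, 294 and 315 CPM in anti-PD-L1, 179, 217 and 188 CPM in anti-CD8a, 277, 212, 318 and 313 CPM in IgG and 192, 163, 165, 257 and 228 CPM in control muscles. Here too no control reached an anti-PD-L1 library, and the log2 fold change was 0.68 ± 0.17 (SE, adjusted p = 0.00685). Rpl34 had 358, 244.9 and 274 CPM in anti-PD-L1, 156, 177 and 172 CPM in anti-CD8a, 241, 171, 237 and 213 CPM in IgG and 211, 121, 134, 238.3 and 207 CPM in control muscles. Its lowest anti-PD-L1 library was just above control 4, with a log2 change of 0.68 ± 0.21 (SE, adjusted p = 0.0187). In anti-PD-L1 against anti-CD8a the largest after Rpl3 and Rps27 were Rps25 (0.85 ± 0.22, adjusted p = 0.0157), Rpl32 (0.84 ± 0.26, adjusted p = 0.0326), Rpl34 (0.80 ± 0.24, adjusted p = 0.028) and Rps13 (0.73 ± 0.20, adjusted p = 0.0179). Of 15 alternatives the call was lost in 7 for Rpl32 (adjusted p up to 0.143), in 5 for Rpl34 (up to 0.109), in 3 each for Rps25 and Rps13 and in 1 for Rps27.

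In anti-PD-L1 against IgG no member was called higher or lower by edgeR or DESeq2, where edgeR called 3.96% of all genes higher and 1.54% lower and DESeq2 called 6.05% and 6.52%; 2 members, Rpl39 and Rpl4, had an unadjusted p under 0.05. The median log2 fold change was 0.05, against 0.01 over all genes, and 3 members (Rpl34, Rpl39 and Rps15a) had ranges that did not overlap with anti-PD-L1 higher, against 7.41% of all genes, and none with it lower, against 4.48%. Rpl39 had the smallest p. Rpl39 had 319, 231 and 282.7 CPM in anti-PD-L1, 156, 179 and 190.0 CPM in anti-CD8a, 193, 161, 201 and 189 CPM in IgG and 243, 124, 142, 271 and 259 CPM in control muscles. Its anti-PD-L1 libraries were above all IgG libraries, while controls 1, 4 and 5 lay among them, and the log2 fold change was 0.58 ± 0.24 (SE, adjusted p = 0.132). Rpl4, with a log2 change of -0.39 ± 0.16 (SE, adjusted p = 0.142), had the opposite sign. Across the 80 members the log2 fold change in this comparison had a Spearman rho of -0.38 with effective transcript length, against 0.18 in IgG against control; this is across genes of the same libraries, which are not independent. Without IgG 2, 1 member (1.25%, against 8.05% of all genes), Rpl4, was called lower. Of the markers tested, 10 of 11 for macrophages, 6 of 8 for fibroblasts and 2 of 4 for neutrophils were called higher in anti-PD-L1 muscles. Over the alternatives these counts ran from 7 to 11, from 0 to 8 and from 0 to 2. The part of these cell types in the members' values was not tested.

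Genes that work with ribosomal proteins were counted in the same fit, in lists written with earlier results of these data known. Of all genes, 30.2% were called higher and 28.4% lower in IgG against control, 23.2% higher and 24.8% lower in anti-CD8a against IgG, and 20.8% higher and 13.9% lower in anti-PD-L1 against control, and the counts of each list stand beside these shares. Of 20 mRNAs known to carry a TOP motif and that are not members, 16 rose and none fell in IgG against control, with a median log2 fold change of 0.90, and 15 fell and none rose in anti-CD8a against IgG, with a median of -0.76. Over the alternatives the counts were 13 to 17 higher and 12 to 16 lower. Naca, a subunit of the complex that meets nascent chains at the tunnel exit, averaged 898 ± 227 CPM in anti-PD-L1, 458 ± 26.9 CPM in anti-CD8a, 1710.4 ± 380.4 CPM in IgG and 339 ± 73.2 CPM in control muscles (SD, n = 3, 3, 4 and 5), with a log2 fold change of 2.33 ± 0.20 in IgG against control (adjusted p = 6.51e-07). Eif3a, the scaffold of initiation factor 3, rose by 2.24 ± 0.23 (adjusted p = 1.96e-06), Nap1l1, a histone chaperone, by 1.74 ± 0.18 (adjusted p = 1.74e-06) and Hnrnpa1, an RNA-binding protein, by 1.67 ± 0.20 (adjusted p = 7.13e-06). The elongation factors Eef2 (0.86 ± 0.14, adjusted p = 0.000112) and Eef1a1 (0.65 ± 0.15, adjusted p = 0.00169) rose, and Tpt1 (0.00 ± 0.17, adjusted p = 0.996) did not pass. Naca, Eif3a and Nap1l1 were the 3 of this list that were called lower in anti-PD-L1 against IgG, where 1.54% of all genes were. Over the alternatives that count ran from 0 to 10, and the share of all genes called lower from 0% to 13.6%.

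All 8 host genes of small nucleolar RNAs, whose introns carry the guides of ribosomal RNA modification, rose in IgG against control with a median of 2.50, and all 8 fell in anti-CD8a against IgG with a median of -2.26; both counts were 8 in every alternative run. Gas5, whose spliced transcript carries a TOP motif, averaged 119 ± 58.0 CPM in anti-PD-L1, 46.7 ± 4.89 CPM in anti-CD8a, 242 ± 76.5 CPM in IgG and 37.6 ± 6.94 CPM in control muscles. Its log2 fold change was 2.68 ± 0.26 in IgG against control (adjusted p = 1.34e-06), and those of Snhg12, Snhg1 and Snhg5 were 3.79 ± 0.45, 3.29 ± 0.32 and 2.77 ± 0.36 (adjusted p = 5.75e-06, 1.24e-06 and 1.12e-05). Of 9 factors listed for the handling of ribosomal proteins, among them a nuclease of ribosomal RNA, 7 rose and 1 fell in IgG against control. Nob1, the nuclease that finishes 18S ribosomal RNA, rose by 1.27 ± 0.14 (adjusted p = 3.45e-06), Aamp by 1.10 ± 0.15 (adjusted p = 2.19e-05) and Grwd1, known in human cells as a chaperone of Rpl3, by 0.88 ± 0.13 (adjusted p = 4.84e-05). Pdcd2l, a relative of the Rps2 chaperone Pdcd2, fell by 0.88 ± 0.19 (adjusted p = 0.001).

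Of 17 genes that control TOP mRNAs or mTORC1, 11 rose and 1 fell in IgG against control. They hold activators and inhibitors alike. Sesn1 and Ddit4, which restrain mTORC1, rose by 4.17 ± 0.46 (adjusted p = 3.35e-06) and 2.52 ± 0.50 (adjusted p = 0.000475), and Eif4ebp1, which holds back cap-dependent initiation, by 3.31 ± 0.24 (adjusted p = 4.12e-07). Larp1 rose by 1.27 ± 0.15 (adjusted p = 6.43e-06), Mtor by 1.05 ± 0.17 (adjusted p = 8.15e-05) and Myc, a driver of ribosome genes, by 2.05 ± 0.30 (adjusted p = 3.73e-05). Deptor, an inhibitor, fell by 0.83 ± 0.20 (adjusted p = 0.00211). In anti-CD8a against IgG 9 of the 17 fell and 1 rose. The same list gave 8 higher and 1 lower in anti-PD-L1 against control, and 0 in either direction in anti-CD8a against control by edgeR.

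**Figure D4:**
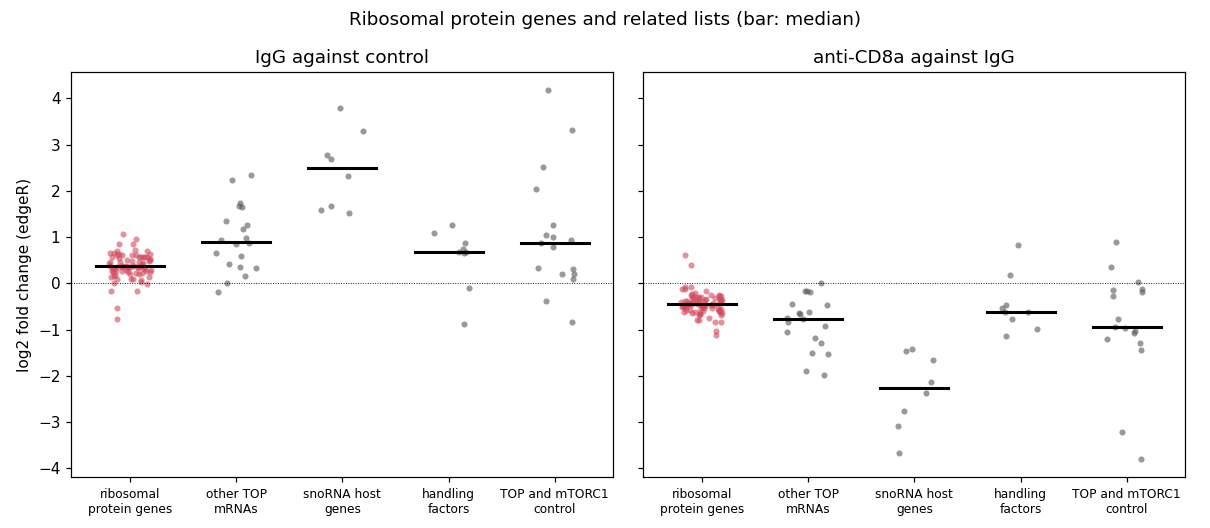
Log2 fold change (edgeR) of each tested gene in IgG against control (left) and anti-CD8a against IgG (right), for the ribosomal protein genes and 4 related lists; black bars are list medians. Medians for the ribosomal protein genes are 0.37 and -0.45, and for the snoRNA host genes 2.50 and -2.26; both panels use the IgG libraries.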

How the data were processed

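Per the labels' protocols, libraries of total RNA were made with a directional MGIEasy kit; per the submitters' processing notes, the tools were Trim Galore, STAR 2.7.9a and RSEM 1.3.3. The genome build, annotation and strand setting are not given in the sources used here. Per the file headers, the deposited values are RSEM expected counts and TPM for 55416 genes, of which 52083 were matched to a symbol by gene ID. Expected counts were rounded and fitted for all 15 libraries together in edgeR 4.0.16 (R 4.3.3): TMM scaling, filterByExpr, quasi-likelihood test, 11 residual degrees of freedom, Benjamini-Hochberg over 14372 genes, called at an adjusted p under 0.05. CPM are TMM-scaled; intervals are SD or SE. The Rpl3l to Rpl3 ratio used deposited TPM with a pseudocount of 0.1 and exact permutation tests in scipy 1.17.1.

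Members and lists were chosen with earlier results of these data known. Members named are those with a close paralogue, Rpl3, Rplp0, Rpsa and Rps6, up to 6 called members of largest change in each direction per comparison, the one of smallest p where none was called, and those of highest and lowest TPM. From related lists up to 4 called genes are named; other genes named were chosen after their values were seen. A few genes that these rules name are not reported here. RSEM divides reads between similar genes; named pseudogenes held 1.31% to 1.56% of the members' counts, and unnamed copies were not examined. Alternatives were DESeq2 1.42.0, other scalings and filters, added pseudogene counts, a replicate block and leaving out libraries.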

Additional observations from a re-analysis of the deposited data

How the results depend on the processing

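Counts of called members depended on scaling and on single libraries, while the medians kept their sign in IgG against control, anti-CD8a against IgG, anti-PD-L1 against control and anti-PD-L1 against anti-CD8a under every alternative run. Upper-quartile scaling gave 11 higher and 3 lower in IgG against control, 8 lower (median -0.22) in anti-CD8a against IgG, 8 higher in anti-PD-L1 against control and 4 higher in anti-PD-L1 against anti-CD8a, or 13.8%, 10.0%, 10.0% and 5.0% of the members, against 22.5%, 17.7%, 14.8% and 8.57% of all genes called that way; it made the share of higher among all called genes 37.0% in IgG against control (51.5% with TMM), 64.5% in anti-CD8a against IgG (48.3%), 44.5% in anti-PD-L1 against control (59.9%), 45.1% in anti-PD-L1 against anti-CD8a (61.3%) and 85.2% in anti-PD-L1 against IgG (71.9%). Without a scaling factor these shares were 77.2% in anti-PD-L1 against control, 81.8% in anti-PD-L1 against anti-CD8a and 95.8% in anti-PD-L1 against IgG, and the median of all genes moved by 0.16, 0.17 and 0.21 on the log2 scale. The use of this setting for counts was chosen after seeing the data. With it 20 members (25%, against 22.2% of all genes) were lower in anti-CD8a against IgG. In anti-PD-L1 against control 56 were higher (70%, against 27.4%). In anti-PD-L1 against anti-CD8a 53 were higher (66.2%, against 19.2%) and 0 lower (against 4.26%), with a median of 0.66. The median of anti-PD-L1 against IgG was 0.27. In anti-PD-L1 against anti-CD8a the lower count was also 0 with no filter on low counts and with only the 2 groups fitted. Without IgG 2 and anti-PD-L1 2 together, 8 were higher (9.88%, against 7.34% of all genes) and 0 lower (against 4.66%) in anti-PD-L1 against anti-CD8a. In anti-PD-L1 against IgG 1 was then lower (1.23%, against 13.6%). The cause was not tested.

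Leaving out each library in turn gave 22 (27.5%, against 29.0% of all genes) to 51 (63.8%, against 28.5%) higher in IgG against control. There 1 to 2 were lower, the 2 without control 2 (2.5%, against 27.6%). In anti-PD-L1 against IgG 0 to 1 was lower, the 1 without IgG 2 (1.25%, against 8.05%). In anti-CD8a against IgG 10 (12.3%, against 19.9%) to 53 (66.2%, against 26.0%) were lower. In anti-PD-L1 against control 8 (10.0%, against 17.8%) to 47 (58.8%, against 17.6%) were higher. In anti-PD-L1 against anti-CD8a 1 (1.23%, against 4.99%) to 22 (27.2%, against 12.2%) were higher. There 0 to 1 was lower, the 1 without anti-PD-L1 3 (1.23%, against 8.29%). The difference in the log2 ratio of Rpl3l to Rpl3 in anti-PD-L1 against IgG ran from -0.37 to 0.48 in this way, being -0.03 without IgG 3, -0.09 without IgG 4 and -0.37 without anti-PD-L1 3, and was -0.0189 with expected counts in place of TPM. The other 5 ratio differences kept their sign.

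The replicate numbers were not found to pair the libraries: 2 of 19 same-numbered pairings correlated better than differently numbered ones, and their correlations ran from -0.35 to 0.18. With the replicate block 35 members (43.8%, against 26.6% of all genes) were higher in IgG against control. In anti-CD8a against IgG 12 (15%, against 20.9%) were lower. There were 29 higher (36.2%, against 14.2%) in anti-PD-L1 against control. In anti-PD-L1 against anti-CD8a 7 were higher (8.75%, against 7.41%) and 0 lower (against 4.58%).

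With 3 to 5 libraries a group, no member passed the test in anti-CD8a against control or in anti-PD-L1 against IgG, which does not show equal levels.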
